A study of Mus musculus with 15 samples.

Results

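A set of 7 genes of epithelial cell death and interleukin 18 biology was followed in small-intestinal epithelium of mice given RANKL. They are the gasdermins Gsdmc2 and Gsdmd, the cytokine gene Il18, its antagonist Il18bp, and the inflammasome genes Nlrp6, Pycard and Casp1. The members were picked by name from the 19938 genes measured, and all 7 were found. Gsdmc2 and Il18 were picked because they were lower after RANKL, so their comparisons with control are described and carry no test. The other 5 members were tested in a fit over all genes.

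The samples were 3 arrays of untreated controls and 3 arrays for each of 1, 2, 3 and 4 days of RANKL, 15 in all. Every group came from wild-type BALB/c mice 10 weeks of age, and the controls are labelled as having received no agent. RANKL, a cytokine of the TNF family that induces M cells through its receptor RANK, was given into the peritoneum as a fusion with GST. The samples include no mice that received GST or a vehicle by itself, so RANKL and the injections as such cannot be told apart. Epithelial cells were released with EDTA (30 mM, 10 min), a step that also frees lymphocytes lying within the epithelium. Nothing in the labels tells whether replicate arrays stand for different mice. What the tests weigh is thus the spread among these samples, which may be technical.

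Values are log2 intensities after quantile normalization. Background was read from the Y chromosome genes Uty, Kdm5d and Eif2s3y, which lay between 4.88 and 5.50 on every array while Xist was at 11.93 or above. A gene was counted as above background in a group when its 3 arrays all exceeded 5.50, and all 7 members were above it in every group. All 10 enterocyte markers were above background in every group, and so were all 8 markers of intraepithelial lymphocytes and T cells and all 8 myeloid markers. In such a mixed sample, fewer cells of a type and less RNA per cell cannot be told apart. On day 2 the intensities of M cell markers summed to 11056 to 12396.5, against 1830 to 2017 in controls. Tuft markers then summed to 924 to 967 (controls 711 to 785). Goblet markers were lower at 54581.5 to 60569 (controls 64810.5 to 67420), and Paneth markers at 11171 to 16501 (controls 17599 to 20221). The part of these cell types in the members' values was not tested. The M cell genes Spib and Gp2 differed from control by 4.57 and -0.02 on day 1 and by 4.67 and 3.75 on day 2 (log2). RANKL day 1 replicate 2 stood apart from the other arrays, with a deposited log2 interquartile range of 1.95 against 2.26 to 2.55.

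Inflammasomes are cytosolic platforms in which a sensor such as NLRP6 recruits the adaptor ASC, encoded by Pycard, and through it the protease caspase 1. Caspase 1 cleaves gasdermin D, whose amino-terminal part forms pores in the plasma membrane, and it matures the precursors of interleukin 1 beta and interleukin 18. Intestinal epithelium makes interleukin 18 constitutively, and the secreted binding protein encoded by Il18bp neutralizes it. The Gsdmc genes of the mouse form a cluster of close copies, and in the intestine they are known as targets of interleukin 4 and interleukin 13 signalling through STAT6.

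The promoters of the members that were lower after RANKL are shown first, as far as they were given. RefSeq windows of 300 bases on GRCm38.p6, from 250 bases before the annotated start to 50 after it, matched 5 of the 7 members. The windows of Il18 and Nlrp6 are printed 5′ to 3′ on the strand of the gene, because these are the members with the lower levels that have a window. Capitals mark the motif match found in each.

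Il18 (chr9:50554450-50554749, forward strand): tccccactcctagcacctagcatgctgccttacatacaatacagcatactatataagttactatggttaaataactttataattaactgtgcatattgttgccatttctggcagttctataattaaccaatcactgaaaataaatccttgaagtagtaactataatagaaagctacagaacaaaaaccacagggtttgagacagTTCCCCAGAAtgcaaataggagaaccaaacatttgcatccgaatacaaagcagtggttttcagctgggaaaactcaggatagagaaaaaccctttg

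Nlrp6 (chr7:140920652-140920951, forward strand): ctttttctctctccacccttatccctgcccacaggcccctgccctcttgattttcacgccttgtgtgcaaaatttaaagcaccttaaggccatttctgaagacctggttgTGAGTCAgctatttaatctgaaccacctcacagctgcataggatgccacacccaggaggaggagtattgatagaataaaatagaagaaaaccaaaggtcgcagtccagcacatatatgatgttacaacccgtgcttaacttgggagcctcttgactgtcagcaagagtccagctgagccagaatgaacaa

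Every motif was searched on both strands. The AP-1 motif was TGANTCA, which is bound by Fos and Jun proteins. The site of nuclear receptors was AGGTCA, in single copy. The GATA factor motif was AGATAA, in the same search. The STAT and STAT6 motifs were the triplets TTC and GAA with 3 or 4 bases between them, and the kappaB motif was GGG followed after 5 bases by CC. Overlapping matches of different motifs were allowed. The Il18 window held 1 match to the STAT6 motif, starting at base 205, and such a match occurs in 6.95% of the 32851 promoters of the table. The Nlrp6 window held 1 match to the AP-1 motif, starting at base 111, against 7.81% of all promoters. The Casp1 window held 1 kappaB match, and 50.8% of promoters hold one. The windows of Il18bp and Pycard held none of the 6 motifs. The STAT, nuclear receptor and GATA motifs matched no member's window and occur in 8.3%, 16.3% and 11.2% of promoters. A match is a description of these letters and was not tested against the arrays.

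Among the gasdermins, Gsdmc2 was the member with the lower level on all 12 RANKL arrays. Its controls read 7.14, 7.45 and 7.35 (probe set 10428955; mean 7.32 ± 0.16, SD, n = 3). After 1 day of RANKL it read 5.64, 5.73 and 5.97, and after 2 days 5.93, 5.99 and 5.95. On day 3 it read 5.98, 5.75 and 5.84, and on day 4 it read 6.28, 5.99 and 5.99. Every RANKL array was thus below every control array, and the 4 RANKL days overlapped one another except for days 1 and 4 and days 3 and 4. The differences from control were -1.53, -1.36, -1.46 and -1.23 on days 1 to 4, each with an SE of 0.11, or 2.90-, 2.57-, 2.75- and 2.35-fold lower. The levels ran in the order day 1, day 3, day 2, day 4 and control, from lowest to highest, and the mean of day 4 was 0.30 above that of day 1.

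The RANKL values of Gsdmc2 stood little above the 5.50 upper limit of background, so these folds may be smaller than the change in RNA. An offset of 16 added to every intensity before the log, which weighs dim values less, gave -1.30, -1.17, -1.25 and -1.06. Leaving out any 1 of the 15 arrays moved the day 1 difference only between -1.63 and -1.47 and the day 4 difference only between -1.32 and -1.17. RANKL day 1 replicate 2, the array that stood apart, was the middle value of its group.

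**Figure D1:**
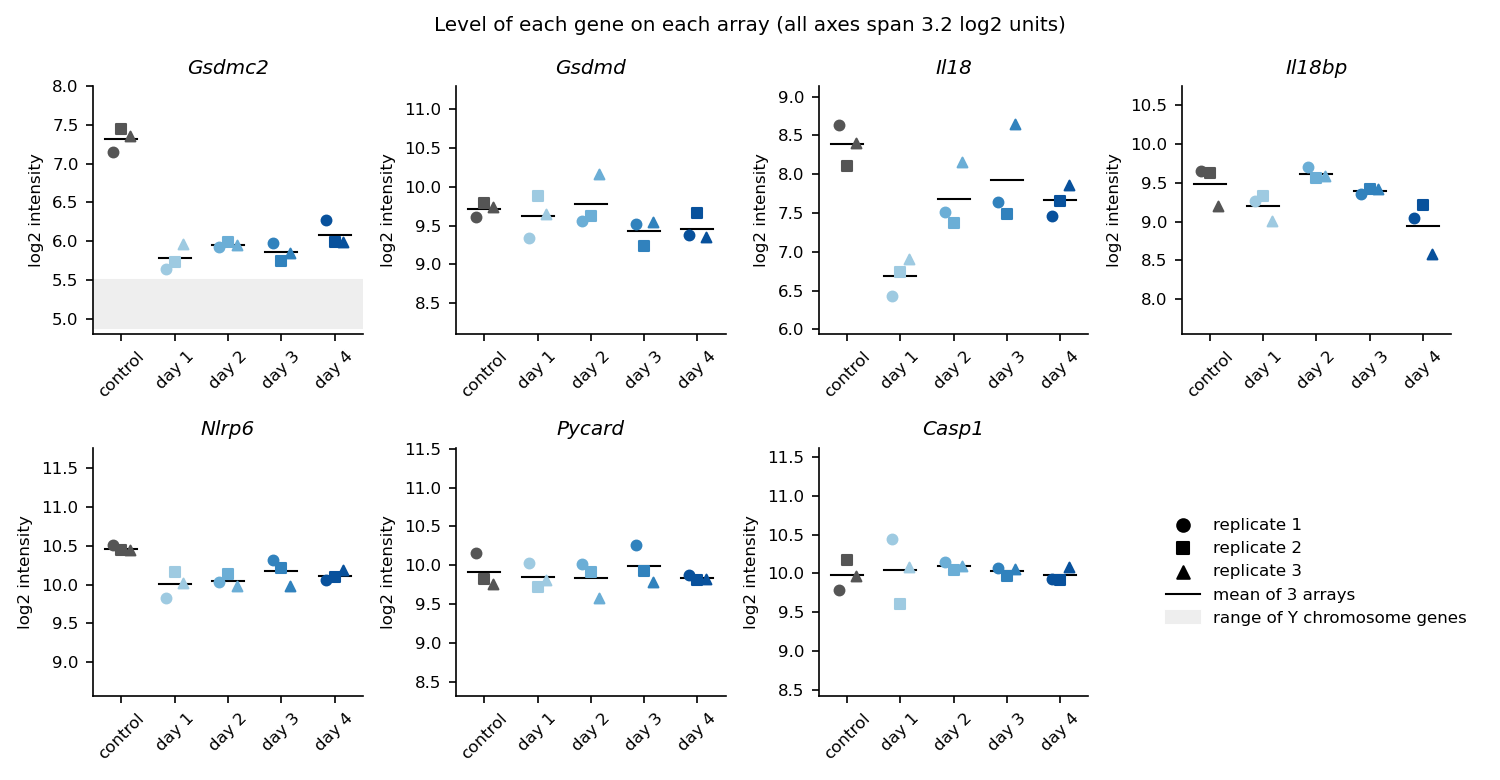
Log2 intensity of the 7 genes on each of the 15 arrays (vertical axis, each spanning 3.2 log2 units) by group (horizontal axis), with a symbol for each replicate number and a line at the mean of 3 arrays. Gsdmc2 lies between 5.64 and 6.28 on the RANKL arrays and between 7.14 and 7.45 in controls; the grey band is the range of the Y chromosome genes, 4.88 to 5.50.

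Among the Gsdmc genes on chromosome 15, ordered by start in RefSeq, Gsdmc2 lies between Gsdmc and the pseudogene Gsdmcl1. The row continues with Gsdmc3, Gsdmcl2, Gsdmc4 and Gsdmcl-ps. Gsdmd starts later on the same chromosome, but genes of other names were left out of this order and distances were not measured. The copies of Gsdmc2 are close in sequence, so a probe set may also read RNA of a neighbour. A probe set annotated to Gsdmc2, Gsdmc3 and Gsdmc4 together read 5.998 ± 0.14 (SD, n = 3) in controls and 5.29, 5.37, 5.37 and 5.42 on average on days 1 to 4. Its differences from control were -0.70, -0.63, -0.63 and -0.58 (SE 0.085), as a description, since it shares Gsdmc2. A probe set annotated to Gsdmc2 and Gsdmc4 was at background in controls (5.23 ± 0.091) and on each day. The 3 probe sets of the pseudogenes averaged 6.999 to 7.10 in controls and differed from control by at most 0.16 on any day.

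Gsdmc4 was called lower on days 1 and 2, with differences of -0.26 (adjusted p = 0.0116) and -0.25 (adjusted p = 0.0209). Its controls lay between 5.09 and 5.19, within the background range, so no fold is given. Without control replicate 3 the call was lost on both days (adjusted p = 0.0596 and 0.107). The day 2 call was also lost without RANKL day 2 replicate 1, 2 or 3 (0.0653, 0.0998 and 0.0657). Gsdmc, the first gene of the row, was at background too and was not called on any day. Gsdmc3 has no probe set of its own here.

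**Figure D2:**
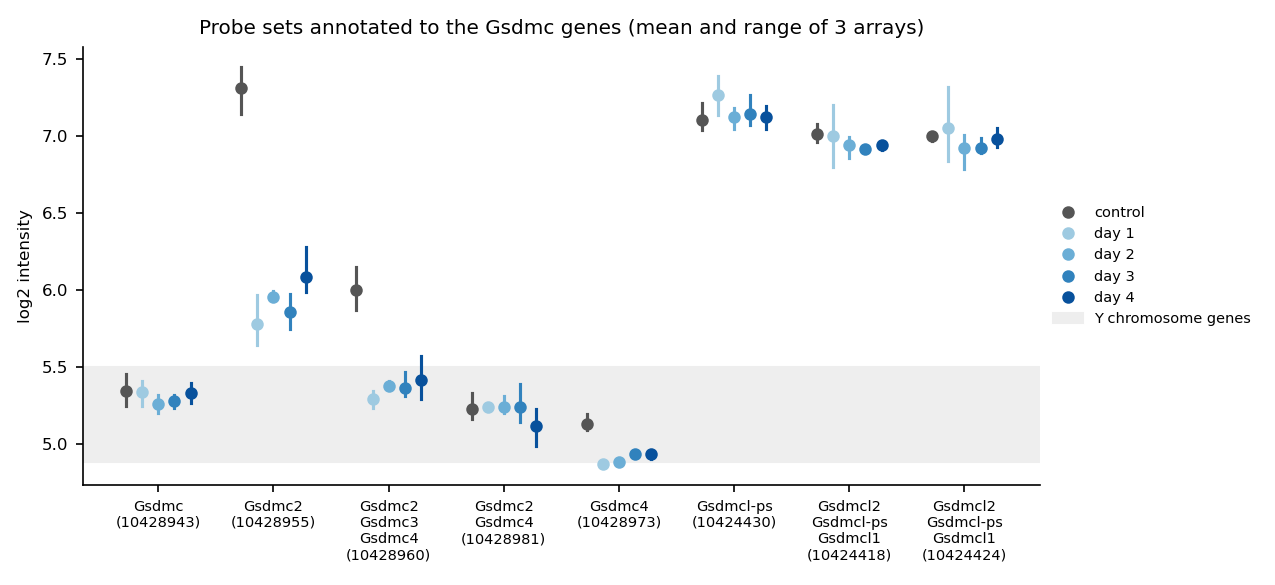
Log2 intensity (vertical axis) of 8 probe sets annotated to genes of the Gsdmc row, with the genes and the probe set number below each; points are means and lines the range of 3 arrays per group. The Gsdmc2 probe set and the one shared with Gsdmc3 and Gsdmc4 are lower on all RANKL days, while the pseudogene probe sets stay between 6.79 and 7.39; levels of different probe sets cannot be compared with each other.

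Gsdmd, the caspase 1 substrate that forms the pyroptotic pore, was not called on any day. Its controls read 9.61, 9.79 and 9.74. It read 9.34, 9.89 and 9.64 on day 1, then 9.55, 9.62 and 10.16 on day 2. On day 3 it read 9.52, 9.24 and 9.55, all below the controls, as was the case for 9.9% of all genes. On day 4 it read 9.38, 9.66 and 9.35. The differences were -0.09, 0.06, -0.28 and -0.25 (SE 0.17), with adjusted p of 0.882, 0.955, 0.459 and 0.693. The 95% interval on day 3 ran from -0.64 to 0.08, so decreases of up to 0.64 lay within it.

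Of the 10 gasdermin genes listed, 9 were measured and 7 of these were above background in at least 1 group. Gsdme, a caspase 3 substrate, read 9.87, 9.94 and 10.11 in controls and 9.55, 9.38 and 9.58 on day 2. Its differences on days 2 and 3 were -0.47 and -0.41 (adjusted p = 0.17 and 0.198), and the RANKL arrays lay below all controls on both days without a call. Of all genes, 9.44% and 9.9% lay wholly below controls on these days. Gsdma, Gsdma3 and Pjvk differed from control by at most 0.09 on any day, and none was called. Gsdma2 differed by 0.31 on day 4 (adjusted p = 0.167), close to background.

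Il18, the cytokine gene of the set, was lowest on day 1 and partly back toward control from day 2. Its controls read 8.64, 8.11 and 8.40 (probe set 10585194; mean 8.38 ± 0.27, SD, n = 3). On day 1 it read 6.43, 6.74 and 6.90, far below every control array. On day 2 it read 7.51, 7.37 and 8.15, and on day 3 it read 7.64, 7.49 and 8.64, so that replicate 3 of both days reached the control range. On day 4 it read 7.47, 7.66 and 7.86, again below all controls. The differences from control were -1.69, -0.71, -0.46 and -0.72 (SE 0.27), or 3.23-, 1.63-, 1.37- and 1.65-fold lower.

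From lowest to highest, the Il18 levels ran day 1, day 4, day 2, day 3 and control, and the means of days 2, 3 and 4 lay within 0.26 of one another. Against day 1, days 2, 3 and 4 were 0.99, 1.24 and 0.97 higher, again as a description, since the low day 1 level helped to pick the gene. Among days 2, 3 and 4, Il18 differed by 0.25 (day 3 minus day 2, 95% interval -0.34 to 0.84), -0.01 (day 4 minus day 2, -0.61 to 0.58) and -0.26 (day 4 minus day 3, -0.85 to 0.33), and none of these passed the limma test. Intervals this wide leave sizeable differences possible in both directions. The day 3 difference from control was the least certain. Leaving out single arrays moved it between -0.81, without RANKL day 3 replicate 3, and -0.24, without RANKL day 3 replicate 2.

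In 4 of the 5 groups replicate 3 had the highest Il18 value, and the mean over groups was 7.99 for replicate 3 against 7.54 and 7.47 for replicates 1 and 2. The summed intensity of the 10 enterocyte markers ran from 70991 to 84059 in controls and from 69837 to 88975 on day 1, and none of them was called on day 1. The 5 villus tip markers summed to 7687 to 8889 in controls and 7092 to 11098 on day 1, also with none called. The ranges of both sums overlapped those of controls on day 1, but bright genes weigh most in such sums. Single enterocyte markers differed from control by -0.51 to 0.41 on day 1 (median -0.08). Single villus tip markers differed by -0.32 to 0.39 (median 0.11). The part of enterocyte numbers in the Il18 values was not tested.

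Il18bp, which encodes the secreted antagonist of interleukin 18, was not called against control on any day. Its controls read 9.65, 9.62 and 9.20. It read 9.27, 9.33 and 9.01 on day 1, 9.71, 9.56 and 9.59 on day 2, and 9.36, 9.41 and 9.42 on day 3. On day 4 it read 9.04, 9.22 and 8.59, which overlapped the controls only through control replicate 3. The differences were -0.29, 0.13, -0.09 and -0.54 (SE 0.15), with adjusted p of 0.422, 0.855, 0.846 and 0.164, and the day 4 interval ran from -0.86 to -0.21.

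Among the 36 member comparisons between RANKL days that were tested, the smallest adjusted p was that of Il18bp for day 4 against day 2. The difference was -0.67 (adjusted p = 0.0674), which was not a call. The arrays of these days did not overlap, but the share of all genes without overlap was not counted between RANKL days. The replicate number as a block gave an adjusted p of 0.0215 for this Il18bp difference. It also passed without control replicate 3 (0.0439) and without RANKL day 4 replicate 2 (0.0313), and it passed under 5 of 25 alternatives in all. The 8 lymphocyte and T cell markers summed to 5477 to 7867 on day 2 and 4253 to 5852 on day 4, against 6267 to 8196 in controls. None of these 8 was called against control on day 4, when their median difference was -0.55. The 8 myeloid markers summed to 2307 to 2621 on day 2 and 2526 to 2706 on day 4. The part of either cell type in the Il18bp values was not tested.

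The receptor chains for interleukin 18, Il18r1 and Il18rap, read 6.31 and 6.38 on average in controls. They differed from control by at most 0.09 on any day, and neither was called.

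Nlrp6, the sensor that is prominent in intestinal epithelium, fell on days 1 and 2 and lay below every control on all 12 RANKL arrays. Its controls read 10.51, 10.44 and 10.44 (probe set 10558742; mean 10.46 ± 0.038, SD, n = 3). On day 1 it read 9.83, 10.16 and 10.02, and on day 2 it read 10.03, 10.14 and 9.98. On day 3 it read 10.32, 10.22 and 9.98, and on day 4 it read 10.06, 10.10 and 10.19. The highest RANKL array, at 10.32, was therefore below the lowest control, at 10.44. Of all genes, 8.51%, 9.44%, 9.9% and 6.16% lay wholly below controls on days 1, 2, 3 and 4. The share of genes below controls on all 12 arrays was not counted. The differences were -0.46 on day 1 (adjusted p = 0.0159), -0.41 on day 2 (0.0389), -0.29 on day 3 (0.136) and -0.35 on day 4 (0.16), each with an SE of 0.097. As folds these were 1.38-, 1.33-, 1.22- and 1.27-fold lower, and the day intervals overlapped.

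Nlrp6 was the 1 call among the 5 tested members on day 1 and on day 2, both lower, and no member was called higher. On day 1, 3.94% of all genes were called and 1.94% were called lower. On day 2 the shares were 2.57% and 1.05%. On days 3 and 4 none of the 5 was called by limma, although 1 and 2 of them had an unadjusted p under 0.05. The shares of all genes were 2.96% called and 1.24% called lower on day 3, and 0.908% and 0.0903% on day 4. Fewer genes of any kind were therefore called on day 4.

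The moderated F test over the 4 days called 3.6% of genes and none of the 5 members, with an adjusted p of 0.0671 for Nlrp6 and 0.0956 for Il18bp. A contrast of the mean of the 4 RANKL days with control was added after the values were seen. It gave -0.38 ± 0.077 for Nlrp6 (SE, 95% interval -0.54 to -0.21, adjusted p = 0.0125, lower on 12 of 12 RANKL arrays). Since the contrast was added with the Nlrp6 levels known, this p-value is a description and no independent support. In that contrast 1.6% of all genes were called lower, and none of the other 4 members was called.

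The Nlrp6 calls were close to the threshold. The day 1 call was lost without control replicate 1 (adjusted p = 0.0554), control replicate 3 (0.0508) or RANKL day 1 replicate 1 (0.0627), and in a fit of the control and day 1 arrays alone (0.117). The day 2 call was lost without control replicate 1, 2 or 3 (0.129, 0.0789 and 0.11), without RANKL day 2 replicate 1, 2 or 3 (0.137, 0.0701 and 0.118), and with unmoderated statistics (0.0765). It was also lost without RANKL day 1 replicate 3 (0.054), day 3 replicate 2 (0.055), or day 4 replicate 1 or 2 (0.0572 and 0.0542). The mean over days lost its call without control replicate 1 (0.0762) or 3 (0.0583). With single arrays left out, the difference itself stayed between -0.54 and -0.37 on day 1 and between -0.46 and -0.38 on day 2.

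**Figure D3:**
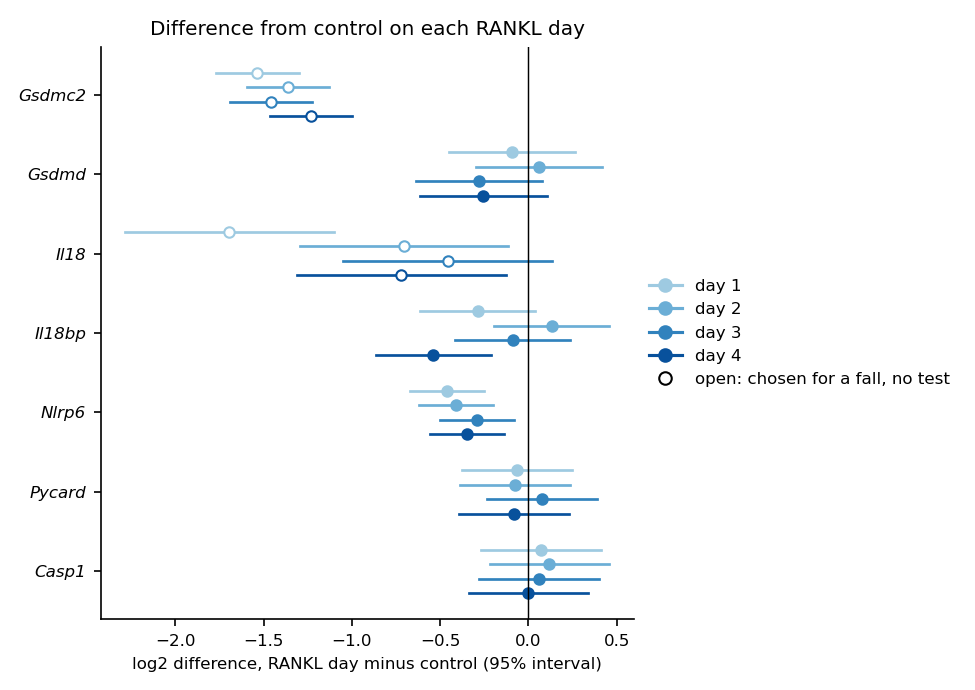
Log2 difference from control (horizontal axis) with its 95% interval for each of the 7 genes on RANKL days 1 to 4, from the fit of all 15 arrays; open symbols mark Gsdmc2 and Il18, which were picked for being lower and carry no test. The Nlrp6 intervals lie below 0 on all 4 days before adjustment over all genes, while those of Casp1 and Pycard span 0.

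Pycard, which encodes the adaptor ASC, was not called on any day. Its controls read 10.16, 9.83 and 9.75. It read 10.03, 9.72 and 9.81 on day 1, 10.02, 9.92 and 9.58 on day 2, 10.26, 9.93 and 9.79 on day 3, and 9.88, 9.81 and 9.82 on day 4. All groups overlapped. The differences were -0.06, -0.08, 0.08 and -0.08 (SE 0.14), with adjusted p of 0.866 or more, and no day's interval reached beyond -0.39 or 0.39. Replicate 1 was the highest array in 5 of 5 groups, with a mean of 10.07 against 9.84 and 9.75 for replicates 2 and 3.

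Casp1, the gene of the inflammasome protease, read 9.78, 10.17 and 9.97 in controls. It read 10.44, 9.60 and 10.09 on day 1, so that its widest spread was within that group. It read 10.14, 10.04 and 10.10 on day 2, 10.07, 9.97 and 10.05 on day 3, and 9.92, 9.91 and 10.09 on day 4. Its differences were 0.07, 0.12, 0.06 and 0.00 (SE 0.16), with adjusted p of 0.881 or more. The intervals on all days lay between -0.34 and 0.46. The lowest day 1 array was replicate 2, the one that stood apart, and without it the day 1 difference was 0.29. Without replicate 1, the highest of the group, it was -0.13.

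Comparisons between RANKL days gave no call by limma among the members in 36 tests, 3 of which had an unadjusted p under 0.05. Gsdmc2 and Il18 against day 1 were not tested. Over all genes, 0.201% were called between days 2 and 1, 0.351% between days 3 and 1, and 1.32% between days 4 and 1. Between days 3 and 2 the share was 0%, between days 4 and 2 it was 0.722%, and between days 4 and 3 it was 0.015%. Gsdmc2 did not pass between days 2, 3 and 4, with differences of -0.10, 0.13 and 0.23 and adjusted p of 0.807 or more. Its interval for day 4 minus day 3 ran from -0.0031 to 0.46.

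The wider pathway was followed in 9 lists of gasdermins, inflammasome sensors and regulators, caspases, interleukin 1 family genes, receptors and signalling, the interleukin 4 and 13 axis, and necroptosis. Besides the 7 members they listed 91 genes, of which 80 were measured, 73 of them above background in at least 1 group. On day 1, 4 of the 80 were called higher and 4 lower, 10% in all against 3.94% of all genes. On day 2 it was 2 higher and 1 lower (3.75% against 2.57%), and on day 3 it was 1 higher (1.25% against 2.96%). On day 4 none was called by limma (0% against 0.908%). The median differences of the 80 genes were -0.03, -0.0012, -0.01 and 0.00, beside -0.01, -0.02, -0.01 and 0.01 for all genes.

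The interleukin 4 receptor chain gene Il4ra had the largest rise of these lists on day 1. It read 9.19, 9.19 and 9.36 in controls and 9.93, 10.60 and 10.28 on day 1, a difference of 1.02 ± 0.16 (SE, adjusted p = 0.00278, 2.03-fold higher). The day 2 difference was 0.75 (adjusted p = 0.0259), and those of days 3 and 4 were 0.60 (0.0688) and 0.40 (0.444). The day 1 call held under all 25 alternatives. The day 2 call was lost without control replicate 1, 2 or 3 (0.0939, 0.0787 and 0.0612) or RANKL day 2 replicate 1 or 3 (0.0702 and 0.0946). Unmoderated statistics lost it too (0.0848). Il13ra1, its partner chain in the type II receptor, fell on day 1 by 0.41 (adjusted p = 0.0163), and it was 0.01, -0.08 and -0.20 from control on later days. That call was lost without control replicate 2 or 3 (0.071 and 0.0566) or RANKL day 1 replicate 1 or 3 (0.0505 and 0.0539). In all, 2 of the 11 measured genes of the interleukin 4 and 13 axis were called on day 1.

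Il1rn, which encodes the interleukin 1 receptor antagonist, was the 1 call on day 1 among the interleukin 1 family ligands and antagonists other than Il18. It read 7.66, 7.63 and 7.77 in controls and 8.62, 8.22 and 8.59 on day 1, a rise of 0.79 ± 0.15 (SE, adjusted p = 0.00935, 1.73-fold). It was not called later, with differences of 0.37, 0.33 and 0.39. Its call was lost when arrays were centred on their medians (0.0527).

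Among 16 measured regulators of inflammasomes, the RNA helicase gene Dhx9 rose and the ubiquitin ligase gene Trim31 fell on day 1. Dhx9 differed by 0.51 on day 1 (adjusted p = 0.00532) and by 0.36 on day 3 (0.0462). The day 1 call was lost under 3 of 25 alternatives (0.0548 to 0.148), and the day 3 call was lost under 16 of 25 alternatives, among them the omission of any control array (0.152, 0.0633 and 0.0908). Trim31 read 10.97, 11.23 and 11.15 in controls and 10.59, 10.74 and 10.65 on day 1, a fall of 0.46 (-0.46, adjusted p = 0.00628). Neither was called on day 2 or day 4. Trim31 did not overlap the controls on day 3 either, at -0.23 (adjusted p = 0.183), when 9.9% of all genes lay wholly below controls.

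Ripk3, a kinase of necroptosis, rose by 0.59 on day 1 (adjusted p = 0.0201) and 0.63 on day 2 (0.0179), the 1 call among 5 measured necroptosis genes on each day. It read 8.91, 8.97 and 8.85 in controls, between 9.45 and 9.54 on day 1, and 9.39, 9.42 and 9.80 on day 2. By day 4 the difference was 0.04. The day 1 call was lost without control replicate 1 or 3 (0.0568 and 0.0808) or RANKL day 1 replicate 1 or 3 (0.0668 and 0.0556), and on the values as deposited (0.108). The day 2 call was lost without control replicate 1 or 3 (0.0611 and 0.0846) or RANKL day 2 replicate 3 (0.0646). The values as deposited (0.0535), median centring (0.115) and unmoderated statistics (0.0588) lost it too. Irak2, a kinase of interleukin 1 receptor signalling, was called on day 1 at -0.41 (adjusted p = 0.0494), a call that was lost under 19 of 25 alternatives, including the omission of any control or any day 1 array (0.061 to 0.145). In a fit of the control and day 1 arrays alone, limma no longer called Gsdmc4, Il13ra1, Dhx9, Trim31 or Irak2 on day 1 (adjusted p = 0.27, 0.132, 0.0815, 0.1 and 0.101).

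No caspase gene was called on any day, among 8 measured of 10 listed. Casp4, the sensor protease of the noncanonical pathway, differed by 0.41 on day 1 (adjusted p = 0.186). Casp8 differed by 0.43 on day 2 (0.138) and Casp12 by 0.41 on day 3 (0.179). Casp2 was between -0.24 and -0.13 on the 4 days and Casp9 between -0.19 and -0.10. Casp14 was between -0.16 and -0.01 on the 4 days. Casp6 differed by 0.47 on day 4 with an SE of 0.27. None of the 6 measured interleukin 1 and 18 receptor genes was called either.

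**Figure D4:**
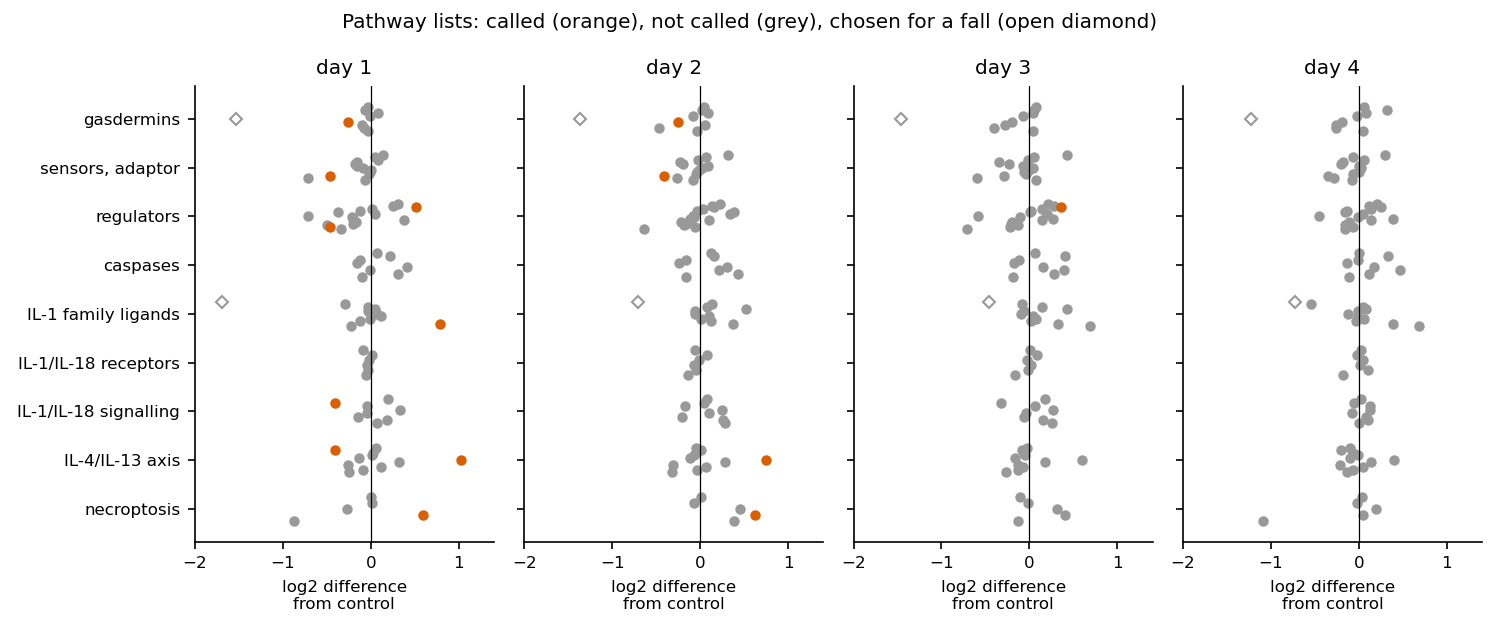
Log2 difference from control (horizontal axis) for every measured gene of the 9 pathway lists (vertical axis) on each RANKL day; orange points were called at an adjusted p under 0.05, grey points were not, and open diamonds are Gsdmc2 and Il18. Orange points are most numerous on day 1 and are missing on day 4; the lowest grey point on day 4 is Zbp1, at -1.09 (adjusted p = 0.372).

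The genes most like Gsdmc2 were named by the Pearson correlation over the 15 arrays among genes above background in at least 1 group. They were Ifnlr1 (0.92), Zyg11a (0.92), Snx29 (0.91), Slc6a20b (0.91) and Rhbg (0.90). Ifnlr1 encodes a chain of the interferon lambda receptor, Slc6a20b an amino acid transporter and Rhbg an ammonium transporter. Ifnlr1 differed from control by -1.10, -1.44, -1.45 and -1.09 on days 1 to 4, and Slc6a20b by -1.33, -1.31, -1.34 and -0.71. The likeness lay mainly in the step between control and RANKL, since within groups the correlations with Gsdmc2 were 0.47 for Ifnlr1 and 0.08 for Slc6a20b. The arrays share their groups and their scaling, so these are descriptions.

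The genes most like Il18 were Tmem253 (0.88), Cox4i1 (0.87), Aldh1l1 (0.87), Smpdl3a (0.86) and Mirlet7a-1 (0.86). Aldh1l1, an enzyme of folate metabolism, read 9.11, 9.20 and 9.16 on day 1 against 10.06, 10.04 and 9.86 in controls. Within groups Aldh1l1 correlated with Il18 at 0.83 and Tmem253 at 0.74, a description, since both were picked on these same arrays. Tmem253 differed from control by -0.64 on day 1 and by -0.06, 0.01 and -0.11 afterwards.

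**Figure D5:**
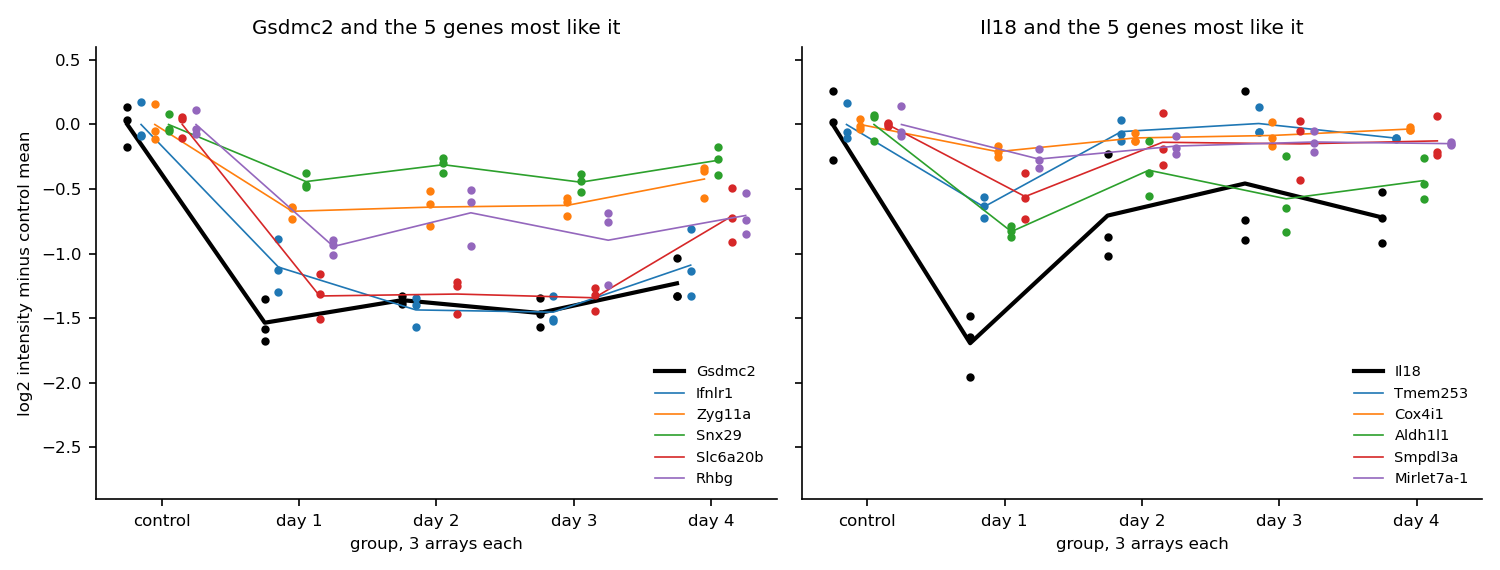
Log2 intensity minus the control mean (vertical axis) by group (horizontal axis) for Gsdmc2 (left) and Il18 (right) in black and the 5 genes with the highest correlation to each; points are arrays and lines join the group means. The Gsdmc2 group steps down on day 1 and stays below control, with Slc6a20b partly back on day 4 (-0.71 against -1.33 on day 1). The genes in the right panel are lowest on day 1 and closer to control from day 2.

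Among the members themselves, Gsdmc2 and Nlrp6 had the highest correlation over the 15 arrays (0.80), against 0.07 within groups. Gsdmc2 and Il18 correlated at 0.59, and at -0.12 within groups. Il18 and Nlrp6 correlated at 0.53 overall and -0.35 within groups. Genes that are all lower after RANKL correlate over the 15 arrays through that shared step, and Gsdmc2 and Il18 were picked for it. The correlations of these members are therefore descriptions, and none was strongly positive within groups.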

How the data were processed

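RNA of 15 samples was measured on Affymetrix arrays, and the deposited table holds intensities on a linear scale for 28853 probe sets. Per the submitters' processing notes the build is mm9. How the authors summarised, background corrected and scaled the deposited intensities is not given in the sources used here. Here they were log2 transformed without an offset and then quantile normalized. Of the probe sets, 21789 carried 1 symbol, 1621 several and 5443 were not listed; each of 19938 genes took its probe set with the highest mean. No dim gene was left out.

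One limma fit (limma 3.58.1, R 4.3.3) of all 15 arrays gave each contrast, with 10 residual and 3.49 prior degrees of freedom. P-values were two-sided and adjusted by Benjamini-Hochberg over all genes, with calls made below 0.05. The fit was also run on simulated arrays with independent noise and changes on day 1 only. These held neither an array that stood apart nor deviations shared by replicate number, so they do not bear on the calls here. Detection flags were not used here, and 3 arrays per group limit the precision.

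The members and all gene lists were chosen with earlier results of these data known. The text names all members, every other measured gasdermin, the 5 genes most like Gsdmc2 and Il18 (Gm, Rik, LOC, BC and AA names left out), up to 4 called genes of each list and day, the caspases, the interleukin 18 receptor chains, Gp2 and Spib. Gene names follow the platform annotation.

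Replicate numbers were checked for pairing through the correlation of deviations from group means: for days 2 and 3 every same-numbered control pair exceeded 0.1, and for days 1 and 4 not every pair did. Over all pairs of arrays from different groups, the median correlation was 0.14 for the same number and -0.07 for different numbers. The reported fit held no term for replicate number, so its SEs, intervals and p-values leave any such pairing out. The alternatives were the values as deposited, median centring, an offset of 16, a filter on the dimmest 40% of genes, the mean of probe sets, a trended and robust prior, array weights, the replicate block, unmoderated statistics, only the groups compared, and each array left out in turn.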

Additional observations from a re-analysis of the deposited data

Results flagged for a closer look

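Trim31 was 0.392 higher on day 4 than on day 1 (log2, limma adjusted p = 0.0355). The day 1 arrays were at 10.59, 10.74 and 10.65 and the day 4 arrays at 11.19, 11.00 and 10.96. Trim31 is named because its day 1 level was called lower than control, and this comparison uses the same day 1 arrays. The p-value is therefore a description and no independent support. The 2 groups did not overlap, though the share of all genes without overlap was not counted between RANKL days. In this comparison 1.32% of all genes were called. None of the 36 member comparisons tested between RANKL days was called by limma, and 3 had an unadjusted p under 0.05; Gsdmc2 and Il18 were not tested against day 1.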

How the results depend on the processing

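The directions of Gsdmc2, Il18, Nlrp6 and of Gsdmd and Il18bp on days 3 and 4 held under every alternative that could give a value; Gsdmc2 has none without the dimmest 40% of genes. The 785 genes called on day 1 became 480 with median centring (37.3% of them higher against 50.7%), 269 in a fit of only the groups compared, and 445 to 1002 with 1 array left out (445 without control replicate 3). For day 2, 513 became 311 with median centring, 844 with array weights, 320 with unmoderated statistics and 283 to 717 with 1 array left out, with 283, 295 and 288 without control replicate 3 and RANKL day 2 replicates 1 and 2. For day 3, 590 became 378 as deposited, 257 with median centring, 1137 with array weights, 324 unmoderated and 236 to 1188 with 1 array left out, the extremes being without RANKL day 3 replicate 3 and without RANKL day 1 replicate 2; it was 385, 355, 270 and 316 without control replicates 1, 2 and 3 and day 3 replicate 2. For day 4, 181 became 289 with array weights, 107 unmoderated and 95 to 336 with 1 array left out; it was 120 and 96 without control replicates 1 and 2, 336 without RANKL day 1 replicate 2, and 113 and 95 without day 4 replicates 1 and 2. With the replicate block the counts were 1052, 635, 712 and 216 on days 1 to 4, and no member's call against control changed.

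The 1 tested member called on day 1 became 0 with only the groups compared and 0 to 1 with 1 array left out. The 1 on day 2 became 0 unmoderated and 0 to 1 with 1 array left out, and the 1 in the mean of days became 0 to 1. Members called between days 4 and 2, 0 in the reported fit, became 1 (Il18bp) without the dimmest genes, with array weights and with the replicate block, and 0 to 1 with 1 array left out. Of the 80 pathway genes, the 8 called on day 1 became 4 with median centring, 3 with only the groups compared and 5 to 9 with 1 array left out (5 without control replicate 3 or RANKL day 1 replicate 1 or 3). The 3 on day 2 became 1 unmoderated, 5 with only the groups compared and 0 to 4 with 1 array left out (0 without control replicate 3 or RANKL day 2 replicate 3). The 1 on day 3 became 0 as deposited and with median centring, 3 without the dimmest genes, 5 with array weights, 2 with the replicate block and 0 to 3 with 1 array left out. The 0 on day 4 became 1 with the trended prior, array weights or unmoderated statistics, and 0 to 1 with 1 array left out.

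Differences near 0 changed sign without ever being called. Casp1 on day 1 was -0.0112 as deposited, -0.0579 with median centring and -0.130 to 0.289 with 1 array left out. It ran from -0.0360 to 0.154 on day 3, was -0.0321 with array weights and -0.0941 to 0.0963 otherwise on day 4, and ran from -0.0327 to 0.157 in the mean of days. Gsdmd ran from -0.225 to 0.0482 on day 1, and on day 2 it was -0.0447 with array weights and -0.130 to 0.172 with 1 array left out. Il18bp on day 2 ran from -0.0139 to 0.211. Pycard ran from -0.153 to 0.0614 on day 1, -0.0570 to 0.200 on day 3, and -0.117 to 0.0881 in the mean of days, with 0.0176 there under array weights. On day 2 it was 0.0404 with array weights and -0.168 to 0.0526 with 1 array left out, and on day 4 it was 0.00305 as deposited, 0.0401 with median centring and -0.160 to 0.0446 with 1 array left out. The cause of these changes was not tested. Background correction could not be varied on a summarised table.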
